A study of Mus musculus with 36 samples.

Results

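The comparison set 3 arrays of XX supporting cells at the stage labelled TS24 against 3 arrays of the same cells at TS13, chosen by their sample titles, 6 of the 36 arrays in the series. Supporting cells are the somatic cells of the fetal gonad that surround the germ cells. In the XX gonad they become pregranulosa cells of the ovary, and in the XY gonad Sertoli cells of the testis. The labels place TS13 before, TS24 during and TS34 after the time at which the gonad becomes ovary or testis, and the labels do not spell out the stage code.

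All XX supporting cells came from Tg(Sry-EGFP)92Ei fetuses, progeny of CD-1, which carry a green fluorescent reporter on regulatory sequence of the testis-determining gene Sry, and the cells were gated on that reporter by flow sorting. Gonads of each sex were pooled before sorting, so an array reads a pool and not an animal, and the labels do not say whether the 3 arrays of a group are separate pools. The p-values therefore rest on the spread among the sampled arrays alone, and part of that spread may be technical. For comparison, 3 arrays of XX supporting cells at TS34 and 3 of XY supporting cells at TS13 came from the same line. The XY supporting cells at TS24 and at TS34, 3 arrays at each stage, came from Tg(Sox9-cre/ERT2)1Msan/J fetuses, progeny of C57BL/6. The XY arrays at TS34 enter the shared fit and some of the figures. At TS24 and TS34 sex and mouse line cannot be told apart.

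Fetal pregranulosa cells are known for signalling through WNT4 and R-spondin 1, which keep beta-catenin active, for making the activin antagonist follistatin, and for leaving the cell cycle while Sertoli cells keep dividing. WNT ligands act through Frizzled and LRP receptors, R-spondins act through LGR receptors to keep Frizzled at the surface, and feedback genes such as Axin2, Rnf43 and Nkd1 restrain the pathway. Bone morphogenetic proteins (BMPs) act through SMAD proteins, and the ID genes, which encode inhibitors of basic helix-loop-helix factors, are their best known targets.

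Affymetrix Mouse Gene 1.0 ST arrays gave 1 log2 expression value per probe set, so a difference of 1 is a 2-fold change. Of 19938 named genes 15821 passed a filter on dim genes and were tested. The 3 arrays of XX supporting cells correlated at r of 0.9899 to 0.9908 at TS13 and 0.9791 to 0.9840 at TS24 over the probe sets with 1 gene symbol. The sort and the sex labels were read from marker genes. The gonadal somatic factors Wt1 (11.38 to 11.69), Gata4 (9.75 to 10.49) and Nr5a1 (8.32 to 8.71) had these log2 levels over the 6 arrays and did not pass the test. The Y-linked gene Eif2s3y was at 4.27 to 4.62 on them, and Xist, the RNA of the inactive X chromosome, was at 11.12 to 11.71. The Sry probe set, which read 11.76 to 11.92 in XY cells at TS13, lay between 7.75 and 8.26. The median over all probe sets was 6.627, 6.618 and 6.603 on the TS13 arrays and 6.815, 6.749 and 6.553 on the TS24 arrays, so TS24 replicate 3 lay below the others and the arrays did not share 1 scale.

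From TS13 to TS24 707 genes changed at an adjusted p under 0.05 (limma, Benjamini-Hochberg over all genes tested), which is 4.47% of those tested. Of these 566 were higher at TS24 (3.58%) and 141 lower (0.891%). Differences of at least 1 on the log2 scale were found for 199 of the higher and 78 of the lower genes. The median difference over all tested genes was 0.11, so small rises need to be read against that value. Of all tested genes 20.3% had TS24 arrays that did not overlap the TS13 arrays, 16.2% higher and 4.05% lower at TS24. The share of higher genes among the called, 80.1%, depended on scaling. It was 53.4% after quantile normalization (324 higher, 283 lower) and 62.9% after median centring (373 higher, 220 lower). The total depended on single arrays, with 1173 genes without TS24 replicate 3 against 436 to 491 without any 1 of the other 5 arrays.

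Of the markers of this step, Egfl6, Akr1c14 and Lgr5 rose and Pcdh20 fell. Egfl6, which encodes a secreted matrix protein with epidermal growth factor repeats, was at 6.70, 6.43 and 6.04 at TS13 and at 10.45, 10.49 and 10.36 at TS24. The TS24 arrays sat close together and far above the TS13 arrays. The rise was 4.05 ± 0.17 on the log2 scale or 16.5-fold (n = 3 arrays per group throughout, limma, adjusted p = 4.78e-13). No other named gene rose as far. Throughout, ± gives limma's moderated standard error. It pools the spread of all 18 supporting arrays and borrows across genes, so it is not the spread of the 6 arrays compared. Akr1c14, a hydroxysteroid dehydrogenase of the aldo-keto reductase family, was at 5.38, 5.13 and 4.91 at TS13 and at 8.00, 8.04 and 8.07 at TS24. The TS13 values lay below the 25th percentile of their arrays (5.643 to 5.663), where an array barely separates signal from background, so the rise of 2.90 ± 0.16 (adjusted p = 8.65e-11) may be compressed.

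Lgr5, the R-spondin receptor that marks many epithelial progenitors, was at 7.85, 7.77 and 7.98 at TS13 and at 9.52, 9.18 and 9.46 at TS24. All 3 TS24 arrays were above all TS13 arrays, by 1.52 ± 0.20 (2.87-fold, adjusted p = 3.60e-05). Pcdh20, a protocadherin of the cell surface, was at 7.76, 8.49 and 8.27 at TS13 and at 5.45, 5.11 and 5.28 at TS24. It fell by 2.89 ± 0.25 on the log2 scale (7.42-fold, adjusted p = 1.06e-07) to below the 25th percentile of each TS24 array (5.562 to 5.814).

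**Figure D1:**
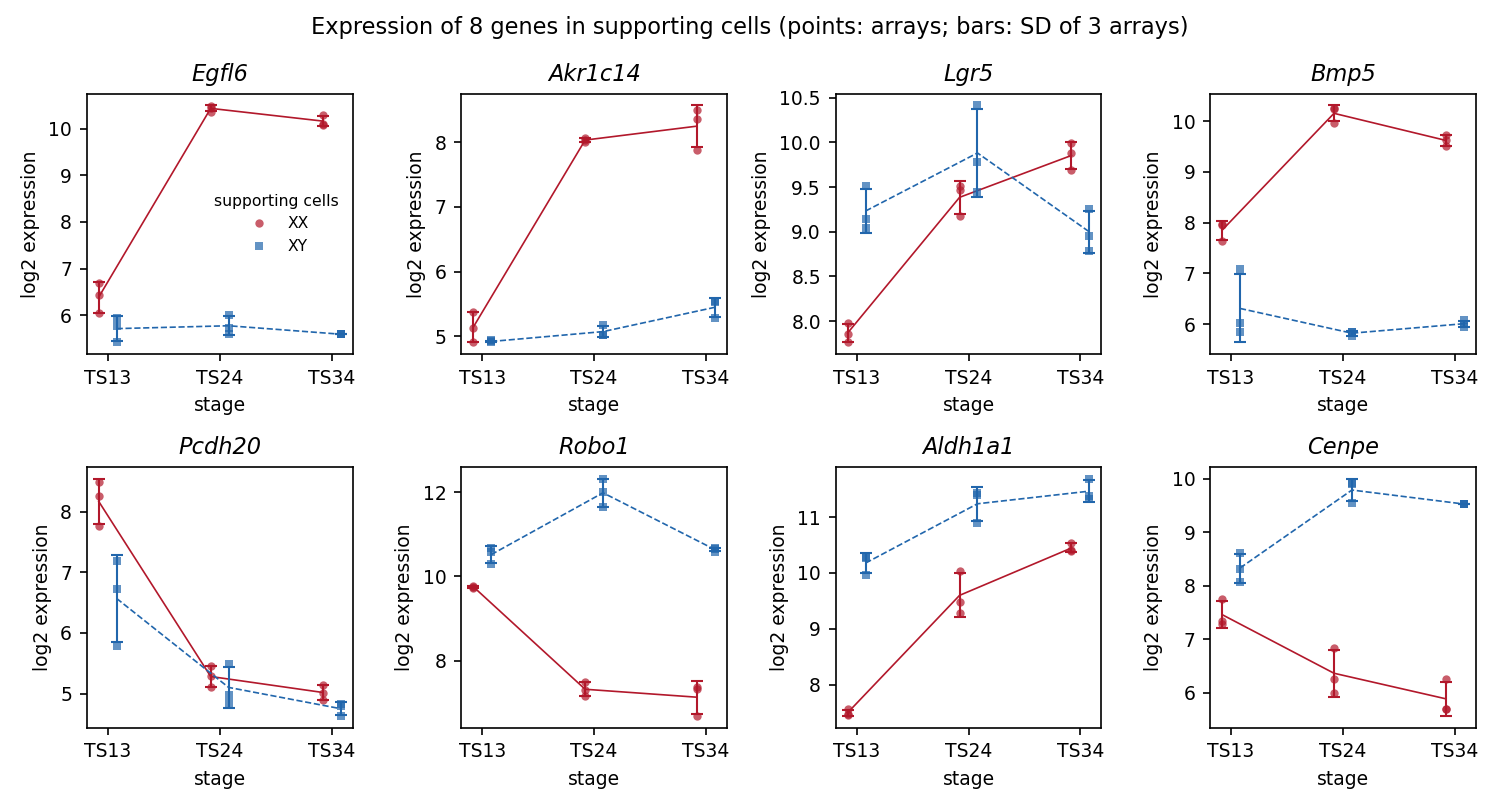
Log2 expression of 8 genes (vertical axes, log2 units) in XX (circles) and XY (squares) supporting cells at TS13, TS24 and TS34 (horizontal axes). Points are arrays, lines join group means and bars are the SD of 3 arrays. Egfl6, Akr1c14 and Bmp5 rose in XX cells and stayed at 7.08 or lower in XY cells, Robo1 moved in opposite directions in the sexes, and Pcdh20 ended near 5 in both.

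The sequences in front of the starts of 5 of these genes are shown because the genes gave the largest marker differences or belong to the retinoic acid pathway described later. They are RefSeq promoters of the mouse assembly GRCm38.p6, from 250 bases before to 30 bases after the annotated transcription start, 5′ to 3′ on the gene's strand. Capitals mark exact matches, on either strand, to 4 motifs searched. The motifs were the TCF/LEF motif CTTTGAA or CTTTGAT, the SMAD GC element GGCGCC, the steroidogenic factor motif AAGGTCA and the forkhead motif TGTTTAC. For Egfl6 the stretch is chrX:166585687-166585966 (minus strand), for Akr1c14 chr13:4059341-4059620 (plus strand) and for Pcdh20 chr14:88471367-88471646 (minus strand). For Aldh1a1, at the more upstream of its listed starts, it is chr19:20492333-20492612 (plus strand), and for Aldh1a2 chr9:71215539-71215818 (plus strand).
Egfl6: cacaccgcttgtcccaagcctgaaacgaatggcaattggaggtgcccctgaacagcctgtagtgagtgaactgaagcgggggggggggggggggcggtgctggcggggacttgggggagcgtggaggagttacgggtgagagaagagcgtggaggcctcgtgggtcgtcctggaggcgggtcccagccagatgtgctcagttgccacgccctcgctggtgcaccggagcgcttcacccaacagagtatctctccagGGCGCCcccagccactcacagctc
Akr1c14: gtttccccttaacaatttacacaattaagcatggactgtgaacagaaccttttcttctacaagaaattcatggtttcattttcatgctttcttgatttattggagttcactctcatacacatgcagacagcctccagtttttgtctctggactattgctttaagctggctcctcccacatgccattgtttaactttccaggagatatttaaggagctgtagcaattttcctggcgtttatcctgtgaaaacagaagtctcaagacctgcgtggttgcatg
Pcdh20: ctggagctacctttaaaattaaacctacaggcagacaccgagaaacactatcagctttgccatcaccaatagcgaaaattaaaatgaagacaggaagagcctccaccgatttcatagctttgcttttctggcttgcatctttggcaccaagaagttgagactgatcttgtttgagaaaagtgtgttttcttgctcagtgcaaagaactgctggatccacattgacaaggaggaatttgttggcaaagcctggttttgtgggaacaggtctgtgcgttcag
Aldh1a1: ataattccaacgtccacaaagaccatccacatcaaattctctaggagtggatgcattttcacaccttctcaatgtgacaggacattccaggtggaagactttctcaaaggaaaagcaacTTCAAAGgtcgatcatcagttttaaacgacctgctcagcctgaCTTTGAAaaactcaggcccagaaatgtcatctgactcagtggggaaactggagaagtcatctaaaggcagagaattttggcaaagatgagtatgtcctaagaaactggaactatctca
Aldh1a2: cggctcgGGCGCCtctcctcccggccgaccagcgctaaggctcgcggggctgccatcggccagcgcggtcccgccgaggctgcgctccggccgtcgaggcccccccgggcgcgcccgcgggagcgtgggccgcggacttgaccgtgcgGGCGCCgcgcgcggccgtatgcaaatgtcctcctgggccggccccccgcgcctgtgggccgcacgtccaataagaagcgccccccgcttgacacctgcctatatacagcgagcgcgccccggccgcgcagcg

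Egfl6 had a GC element starting 7 bases into the transcript, Aldh1a2 had a pair of them before its start (positions -243 and -102), and Aldh1a1 had a pair of TCF/LEF matches, at -131 on the opposite strand and at -88 on its own. The other listed start of Aldh1a1 (promoter chr19:20601718-20602017) had 0 matches to the 4 motifs. The Akr1c14 and Pcdh20 stretches held no match to the 4 motifs. Among called list members scanned but not shown, Id2 had 1 GC element (position -231) and Id3 had 0 matches. The retinoic acid gene Stra6 was not scanned. Of the 31 genes with the largest changes or the marker role, 21 had a promoter that was scanned. The rest had none in the RefSeq table or lay on a chromosome that was left out of the scan of these genes. In 300-base promoters the GC element was in 2 of the 11 risen and 3 of the 10 fallen genes, against 11.9% of all 32851 promoters. The TCF/LEF motif was in 1 of 11 and 2 of 10, against 8.65%. A gene counted if any of its listed promoters matched, while the percentages are shares of single promoters. Genes with several promoters had more chances to match, so the counts and the percentages are unlike measures. The steroidogenic factor motif (4.72% of all promoters) and the forkhead motif (3.65%) were in none of the 21. A match describes the letters and not binding.

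The other genes among the 15 with the largest rises are given by what their products are known to do. Among surface proteins, Lrrn1, a leucine-rich repeat protein first known from neurons, went from 8.14, 8.09 and 7.96 to 11.54, 11.02 and 10.86. Its TS24 values exceeded its TS13 values by 3.08 ± 0.21 (8.44-fold, adjusted p = 3.13e-09). Cntn4, a contactin anchored in the outer membrane, went from 6.56, 6.85 and 6.71 to 9.44, 9.96 and 8.72, a rise of 2.67 ± 0.22, with TS24 replicate 3 lowest. Ano1, a calcium-activated chloride channel, rose by 2.50 ± 0.17 from 6.87, 6.81 and 6.67 to 9.33, 9.51 and 9.02. Calcrl, the receptor subunit for adrenomedullin and calcitonin gene-related peptide, rose by 2.40 ± 0.22 from 6.25, 5.99 and 6.00 to 8.90, 8.65 and 7.91.

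Genes of intracellular signalling followed. Gng13, a G protein gamma subunit, was at 7.79, 7.64 and 7.95 at TS13 and at 10.44, 10.69 and 10.18 at TS24, a rise of 2.65 ± 0.19 (6.26-fold, adjusted p = 3.68e-09). Pde8b, which degrades cyclic AMP, rose by 2.40 ± 0.18 from a narrow 5.75, 5.68 and 5.72 to 7.97, 8.53 and 7.86. Ldb2, a cofactor of LIM-domain transcription factors, rose by 2.52 ± 0.27 from 7.38, 7.56 and 7.18 to 10.36, 9.86 and 9.46. In none of these 3 genes did the stages overlap.

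The actin-associated adaptor Sorbs2 rose by 2.54 ± 0.22 (6.18, 5.76 and 5.98 to 8.63, 8.95 and 7.96) and the actin-binding Nexn by 2.20 ± 0.22 (6.50, 7.12 and 6.88 to 8.73, 9.26 and 9.12). Secreted and matrix proteins were the ligand Bmp5, the fibrillin gene Fbn2 and the metalloprotease gene Adamts19. Fbn2, a component of extracellular microfibrils, rose by 2.22 ± 0.19 (7.18, 7.08 and 7.35 to 9.74, 9.56 and 8.96). Adamts19 rose by 2.34 ± 0.21 (6.29, 5.95 and 6.18 to 8.97, 8.29 and 8.20), and the hydrolase gene Cmbl by 2.21 ± 0.21 (5.34, 5.79 and 5.25 to 7.98, 7.75 and 7.27). For all 15 genes every TS24 array was above every TS13 array, as the choice of the genes required. In 13 of them TS24 replicate 3 was the lowest of the TS24 arrays.

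**Figure D2:**
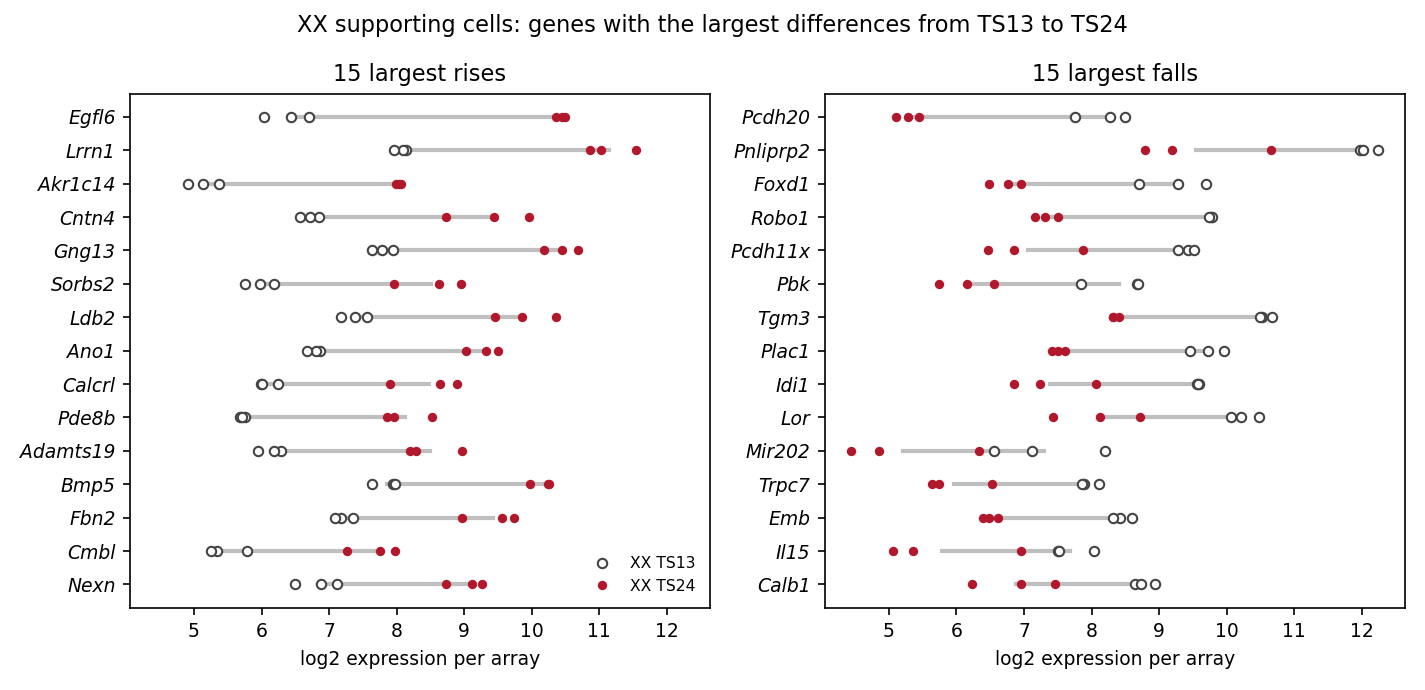
Log2 expression per array (horizontal axis) of the 15 largest rises (left) and the 15 largest falls (right) in XX supporting cells, with open circles for TS13 and filled circles for TS24. Grey lines join the group means. The longest line is that of Egfl6, 4.05 long, and the TS24 arrays of Pnliprp2, Mir202 and Il15 spread the most, with SDs of 0.98 to 1.02.

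The 15 largest falls included adhesion and guidance receptors, enzymes and transcripts that were lower again at TS34. Robo1, the receptor for the guidance cue Slit, was at 9.76, 9.78 and 9.74 at TS13 and at 7.50, 7.16 and 7.31 at TS24, a fall of 2.44 ± 0.19 (5.42-fold, adjusted p = 1.41e-08). Foxd1, a forkhead transcription factor of kidney stroma, went from 8.70, 9.70 and 9.28 to 6.77, 6.49 and 6.95 (-2.49 ± 0.26). The X-linked protocadherin Pcdh11x went from 9.42, 9.52 and 9.28 to 6.85, 6.46 and 7.87 (-2.35 ± 0.26), with TS24 replicate 3 the highest of the TS24 arrays.

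Other falls were of Tgm3, Lor and Pnliprp2. Tgm3, a transglutaminase of skin, had 10.53, 10.50 and 10.67 and then 8.40, 8.31 and 8.32 (-2.22 ± 0.20, adjusted p = 1.14e-07). Lor, loricrin of the cornified envelope, had 10.48, 10.07 and 10.22 and then 8.13, 8.72 and 7.43 (-2.16 ± 0.30). Pnliprp2, a relative of pancreatic lipase, had 11.98, 12.02 and 12.25 and then 8.79, 9.20 and 10.65 (-2.53 ± 0.35). Pnliprp2 therefore had groups that did not overlap but a wide spread at TS24, and Tgm3 had SDs of 0.09 and 0.05 within a stage.

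Plac1, an X-linked gene best known from placenta, fell by 2.20 ± 0.38 on the log2 scale (9.46, 9.72 and 9.97 to 7.60, 7.51 and 7.42). Idi1, an isomerase of cholesterol synthesis, fell by 2.19 ± 0.25 (9.57, 9.59 and 9.58 to 6.85, 8.07 and 7.24), and by 2.08 with its probe sets averaged. The mitotic kinase gene Pbk fell by 2.25 ± 0.25 (7.84, 8.68 and 8.69 to 5.75, 6.16 and 6.56). The cation channel gene Trpc7 (-1.99 ± 0.24), the membrane glycoprotein gene Emb (-1.95 ± 0.29), the calcium-binding protein gene Calb1 (-1.89 ± 0.29) and the cytokine gene Il15 (-1.89 ± 0.31) completed the protein-coding falls. Il15 had 8.03, 7.50 and 7.52 at TS13 and 5.36, 6.96 and 5.06 at TS24, where replicate 2 lay nearer to the TS13 arrays than to the other TS24 arrays.

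Mir202, the gene of a microRNA known from the gonads, had the least certain fall of the 15. Its probe set reads precursor or host RNA and not the mature microRNAs. The mature sequences from RefSeq (GRCm38.p6, chr7:139957695-139957716 for the 3p arm and chr7:139957732-139957752 for the 5p arm, minus strand) are shown to identify it, with the seed, bases 2 to 8, in capitals.
mmu-miR-202-3p: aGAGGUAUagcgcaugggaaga
mmu-miR-202-5p: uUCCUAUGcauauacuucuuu
The arms do not share a seed. The Mir202 values were 6.55, 7.13 and 8.20 at TS13 and 4.86, 4.44 and 6.33 at TS24, a difference of -2.08 ± 0.57 (adjusted p = 0.0362). The call was lost after quantile normalization (0.0571), with the 6 arrays fitted alone, and without TS13 replicate 2, TS13 replicate 3, TS24 replicate 1 or TS24 replicate 2 (adjusted p up to 0.200, without TS13 replicate 3). Calls for the other 29 genes with the largest changes and for Lgr5 held in every alternative run, single arrays left out included.

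Gene lists were then read in the order of what their members do. A list is described by how many tested members were called and by its median difference, beside 4.47% called and a median of 0.11 over all tested genes. Counts are those on the deposited scale. Both other scalings shifted the lists downwards, and the genes they added to the calls of these lists were all lower at TS24. Of the 85 genes called and named here, 13 lost their call after quantile normalization, 7 after centring, 21 with the 6 XX arrays fitted alone and 30 with all 36 arrays. The last number was 9 without the germ cell array that goes against its label. Losses in these other sets of arrays are given below for some genes only, so the losses printed for a gene may be incomplete. Of 14 pregranulosa genes 4 were called, all higher, and the median was 0.26. Besides Gng13 and Lgr5 these were the homeobox gene Irx3 and Fst, which encodes follistatin. Irx3 was at 8.33, 7.90 and 8.01 at TS13 and at 9.72, 8.66 and 9.10 at TS24 (1.08 ± 0.22, adjusted p = 0.00331), a call lost with the 6 arrays fitted alone (0.0518). Fst, already high at 11.47, 11.46 and 11.37, reached 12.53, 12.20 and 11.99 (0.80 ± 0.17, adjusted p = 0.00524), lost with all 36 arrays (0.676). The best known ovarian genes did not pass the test at this step. The forkhead factor gene Foxl2 was at 6.28, 6.05 and 6.32 and then at 6.24, 6.51 and 6.33 (0.15 ± 0.17). Nor were the signalling genes Wnt4 (0.14 ± 0.21), Rspo1 (0.49 ± 0.19) and Bmp2 (0.23 ± 0.19) or the factor gene Runx1 (0.02 ± 0.18) called.

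Of 16 gonadal progenitor genes 1 rose and 2 fell (median -0.07). Gadd45g, a stress-kinase activator needed for Sry expression, fell by 1.71 ± 0.20 on the log2 scale, from 9.90, 9.31 and 9.71 to 7.68, 7.93 and 8.19 (3.26-fold, adjusted p = 4.55e-06). Zfpm2, a cofactor of GATA4, fell by 0.88 ± 0.20 (adjusted p = 0.0110), a call lost without TS13 replicate 2 or TS24 replicate 3 (up to 0.0832). This call was also lost with the 6 XX arrays alone (0.0911) and with all 36 arrays (0.27). The rise of Sox11 (0.70 ± 0.17, adjusted p = 0.0186) was lost after quantile normalization (0.0733) and without TS13 replicate 1 or 2 or TS24 replicate 1 or 2 (up to 0.104). The progenitor factors Lhx9 (-0.31 ± 0.22) and Emx2 (0.06 ± 0.16) were not called.

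Of 22 Sertoli genes 2 rose and 2 fell (median 0.03), but the balance turned with the scaling. After quantile normalization 1 was higher and 5 lower (median -0.10), and after centring 1 was higher and 3 lower. Cst9, a cystatin gene, was lower under both (-1.12 and -1.07, adjusted p = 0.0407 and 0.0419), and Cyp26b1 and the inhibin subunit gene Inhbb after quantile normalization. With the 6 arrays alone 1 gene was higher and none lower. Gatm, which makes the creatine precursor guanidinoacetate, went from 8.71, 8.22 and 7.61 to 10.42, 9.82 and 10.19, a rise of 1.96 ± 0.24 (3.90-fold, adjusted p = 9.40e-06). The beta-defensin gene Defb19 (0.95 ± 0.26, adjusted p = 0.0358), the secreted synaptic protein gene Cbln4 (-0.76 ± 0.19, 0.0157) and the testis factor gene Dmrt1 (-0.67 ± 0.19, 0.0385) were less certain. Defb19 was lost after quantile normalization (0.123), after centring (0.0687) and without any single array other than TS24 replicate 3 (up to 0.253). Cbln4 was lost without TS13 replicate 2, TS13 replicate 3 or TS24 replicate 2 (up to 0.120), and Dmrt1 without TS13 replicate 1 or 3 or TS24 replicate 1 or 3 (up to 0.190). Sox9, the central Sertoli factor, differed by 0.31 ± 0.17 (adjusted p = 0.413) and the Sertoli hormone gene Amh by 0.09 ± 0.18, neither of them called.

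The WNT lists held few calls. Of 22 ligands and R-spondins 1 rose, of 28 receptors and transducers 1, of 17 feedback genes and targets 4 and of 12 inhibitors 1, while none was called lower on the deposited scale. Under both other scalings the R-spondin receptor gene Lgr4 was lower (-0.63 and -0.62, adjusted p = 0.0222 and 0.0351, quantile and centring). The list medians were 0.12, 0.10, 0.15 and 0.11, close to that of all genes. The ligand was Wnt2b, at 6.98, 7.31 and 7.07 and then at 8.12, 8.40 and 7.50 (0.89 ± 0.21, adjusted p = 0.0133). It was lost with the 6 XX arrays alone (0.0702) and without TS13 replicate 1 or 3 or TS24 replicate 1 or 2 (up to 0.102). The receptor was Lgr5, which the list of targets also holds.

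The other targets were Ccnd1, Nkd1 and Rnf43. Rnf43, a ligase that removes Frizzled from the surface, went from 6.04, 5.99 and 5.94 to 7.03, 6.59 and 6.72 (0.79 ± 0.19, adjusted p = 0.0130), and was lost without TS13 replicate 3 or TS24 replicate 1 (up to 0.0912). The D-type cyclin gene Ccnd1 (0.92 ± 0.25, 0.0313) and the feedback inhibitor gene Nkd1 (0.80 ± 0.23, 0.0414) were lost under both scalings (Ccnd1 0.138 and 0.0865, Nkd1 0.0978 and 0.0708, quantile and centring). Without TS13 replicate 2, TS24 replicate 1 or TS24 replicate 2 neither was called, nor was Ccnd1 without TS24 replicate 3 or Nkd1 without TS13 replicate 3 (up to 0.187 and 0.219). The classic target Axin2 (0.51 ± 0.18, adjusted p = 0.119), Lef1 (-0.06 ± 0.18) and the WNT secretion gene Wls (0.63 ± 0.19, 0.0632) were not called. The secreted inhibitor Sfrp2 rose by 0.84 ± 0.16 from 6.49, 6.59 and 6.54 to 7.41, 7.57 and 7.14 (adjusted p = 0.00236), with groups that did not overlap. Its call was lost with all 36 arrays (0.126).

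The BMP list had 4 of 25 genes called, all higher, with a median of 0.17, and the 4 were called under both scalings as well. With the 6 arrays alone and with all 36 arrays 3 were called, without Id2 (0.0511 and 0.132). The ligand Bmp5 was at 7.63, 7.95 and 7.97 at TS13 and at 10.26, 10.24 and 9.98 at TS24, a rise of 2.31 ± 0.22 (4.95-fold, adjusted p = 2.08e-07). Id3 went from 8.21, 7.44 and 7.91 to 9.80, 9.60 and 9.33 (1.72 ± 0.18, adjusted p = 9.29e-07). Id1 went from 7.97, 7.76 and 8.47 to 9.21, 9.33 and 9.15 (1.16 ± 0.23) and Id2 from 7.79, 6.86 and 7.66 to 8.88, 8.91 and 8.14 (1.21 ± 0.25). For these 3 ID genes every TS24 array was above every TS13 array, while Id4 (0.08 ± 0.18) was not called. Neither were the ligand gene Bmp4 (0.50 ± 0.20) and the inhibitory SMAD genes Smad6 (0.17 ± 0.18) and Smad7 (-0.06 ± 0.19), which the same pathway is known to induce.

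Other signalling lists had few calls, and their balance turned with the scaling. Of 13 activin, inhibin and follistatin genes 2 rose, Fst and the follistatin-like Fstl1 (1.02 ± 0.24, adjusted p = 0.0117, lost without TS13 replicate 1 or TS24 replicate 1, up to 0.0817). With all 36 arrays neither was called (0.676 and 0.152). After quantile normalization the inhibin subunit genes Inha (-0.78, 0.0246) and Inhbb (-0.61, 0.0245) were lower beside these 2. Of 15 FGF response genes the receptor Fgfr2 alone rose (0.69 ± 0.17, adjusted p = 0.0206). It was lost after quantile normalization (0.0913), where the FGF inhibitor gene Spred2 was lower (-0.80, 0.0420), and without any single array other than TS24 replicate 3 (up to 0.139). Of 13 hedgehog genes the transcription factor Gli3 (0.66 ± 0.18, 0.0373) and the co-receptor Boc (0.62 ± 0.15, 0.0170) rose. Gli3 was lost under quantile normalization (0.0831), centring (0.0715) and without TS13 replicate 1 or 3 or TS24 replicate 1 (up to 0.222), and Boc under quantile normalization (0.0805) and without TS13 replicate 1 or 3 or TS24 replicate 1 or 2 (up to 0.0899). The list thus had 2 higher genes as deposited, 0 higher and 1 lower after quantile normalization and 1 of each after centring, the lower one being Gli2 (-0.54 and -0.53, adjusted p = 0.0160 and 0.0237). The pathway readouts Gli1 (0.16 ± 0.17) and Ptch1 (0.26 ± 0.23) were not called. By limma no Notch pathway gene of 19 was called, and 3 had an unadjusted p under 0.05. Hey1 was lower after quantile normalization (-0.67, adjusted p = 0.0353).

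Retinoic acid, which pushes germ cells towards meiosis, is made from retinol by dehydrogenases. Of 15 genes of its synthesis, uptake and response 3 were called, all higher (median 0.17), and all 3 held under both scalings and without each single array. Aldh1a1, a retinaldehyde dehydrogenase whose promoter is shown above, was at 7.45, 7.48 and 7.56 at TS13 and at 10.04, 9.28 and 9.47 at TS24 (2.10 ± 0.19, 4.29-fold, adjusted p = 1.14e-07). Aldh1a2, a second such enzyme, was at 8.28, 8.11 and 8.54 and then at 9.99, 10.40 and 9.75 (1.74 ± 0.22, 3.33-fold). Stra6, a receptor that takes up retinol, was at 7.40, 7.52 and 7.44 and then at 8.70, 8.60 and 8.18 (1.04 ± 0.17). In each of the 3 the groups were far apart. Aldh1a2 also stands among the coelomic epithelium markers, which are given below. Cyp26b1, which degrades retinoic acid, was at 7.31, 7.52 and 7.31 and then at 6.78, 6.94 and 6.65 (-0.59 ± 0.21, adjusted p = 0.131). It was called lower after quantile normalization (-0.74, 0.0351), which also turned the list's median to -0.04.

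Steroid enzymes went in both directions, with 1 of 10 genes higher and 1 lower, and 2 lower under both other scalings, which added Akr1cl. Beside the rise of Akr1c14, Cyp11a1, the enzyme that starts steroid synthesis from cholesterol, fell from 7.74, 8.58 and 7.17 to 6.24, 5.77 and 6.08 (-1.80 ± 0.26, 3.48-fold, adjusted p = 7.91e-05). The AKR1C genes are close relatives, and whether their probes read each other was not tested. Of 24 nuclear receptor genes 2 were called, both lower (median 0.15). These were the orphan receptors Nr2f1, at 8.46, 8.12 and 8.50 and then 7.54, 7.36 and 6.71 (-1.16 ± 0.23), and Nr2f2, at 9.53, 9.42 and 9.64 and then 8.84, 8.85 and 8.41 (-0.83 ± 0.17). Nr2f2 lost its call with all 36 arrays, with or without the array that goes against its label (0.614 and 0.0815). Nr2f2 is also an interstitial marker. Of 19 cholesterol synthesis genes Idi1 alone fell, and by limma none of 16 glycolysis genes was called (2 at an unadjusted p under 0.05).

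Basement membrane genes had a median difference of 0.31, with 6 of 25 called, all higher. After quantile normalization 6 were called with a median of 0.22, and after centring 5 with a median of 0.20. Besides Egfl6 they included Frem2 (1.02 ± 0.20, adjusted p = 0.00303) and Fras1 (0.85 ± 0.16, 0.00223), partners in a matrix complex under epithelia, and Npnt (0.99 ± 0.19, 0.00301, lost with all 36 arrays at 0.0524), which encodes nephronectin, a ligand of integrins. The laminin chains Lama1 (0.96 ± 0.18, 0.00173) and Lama4 (0.75 ± 0.19, 0.0262) also rose. Lama1 was at 7.12, 7.07 and 7.00 at TS13 and at 8.47, 7.90 and 7.69 at TS24, without overlap. Lama4 was lost after centring (0.0801) and without TS13 replicate 2 or 3 or TS24 replicate 1 or 3 (up to 0.128).

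Among cell adhesion receptors, 1 of 31 cadherins and protocadherins rose and 4 fell (median -0.02). Cdh2, N-cadherin, went from 7.53, 7.82 and 7.74 to 9.59, 9.01 and 8.91 (1.47 ± 0.18, 2.77-fold, adjusted p = 1.33e-05). Besides Pcdh20 and Pcdh11x, Cdh9 fell from 7.50, 7.80 and 7.21 to 6.32, 5.32 and 5.63 (-1.75 ± 0.21) and Pcdh7 from 7.24, 8.35 and 7.50 to 6.72, 6.22 and 6.63 (-1.17 ± 0.23). The cadherin list kept 1 higher and 4 lower calls under both scalings, but had 2 higher and 3 lower with the 6 arrays alone, where Pcdh7 was lost (0.0511). Of 16 integrins 2 rose, Itga9 (6.61, 6.48 and 6.79 to 7.64, 8.01 and 7.57, 1.12 ± 0.21, adjusted p = 0.00174, lost with all 36 arrays at 0.0886) and Itgav (0.83 ± 0.21, 0.0195). Itgav was lost after quantile normalization (0.0990) and without TS13 replicate 2 or 3 or TS24 replicate 1 or 2 (up to 0.140).

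Of 37 axon guidance genes 3 rose and 1, Robo1, fell (median 0.00). There were 1 higher and 2 lower after quantile normalization and 2 of each after centring, with the semaphorin receptor gene Plxnd1 added to the lower. The ephrin ligand Efna1 was at 7.71, 7.88 and 7.21 and then at 8.79, 8.30 and 8.87 (1.05 ± 0.18, adjusted p = 0.000852). The secreted semaphorin Sema3a (0.88 ± 0.20, 0.0108) was lost after quantile normalization (0.0606) and without TS13 replicate 2 or 3 (up to 0.0640). The receptor Ephb4 (0.64 ± 0.18, 0.0376) was lost after quantile normalization (0.109), centring (0.0625) and without TS13 replicate 1 or 3 or TS24 replicate 1 or 2 (up to 0.235).

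Of 19 ligands that act on neighbouring cells 2 rose and 2 fell (median 0.02), against 1 and 3 after quantile normalization, where Pdgfa was lower, and 1 and 2 after centring. The heparin-binding growth factors midkine and pleiotrophin moved in opposite directions. Mdk went from 9.94, 9.80 and 10.16 to 9.33, 9.20 and 8.71 (-0.89 ± 0.18, adjusted p = 0.00331), and Ptn from 6.42, 7.18 and 7.49 to 9.30, 8.25 and 7.84 (1.43 ± 0.34, 0.0147). The groups did not overlap for either gene, but the call of Ptn was lost without TS13 replicate 1 or TS24 replicate 1 (up to 0.142). It was also lost with the 6 XX arrays alone (0.0777) and with all 36 arrays (0.265). Pdgfc fell by 1.16 ± 0.26 (0.00946), lost without TS13 replicate 2 (0.0723). Tgfb3 rose by 0.99 ± 0.25 (0.0184), lost after quantile normalization (0.0524), centring (0.0627) and without TS13 replicate 1 or 3 or TS24 replicate 2 or 3 (up to 0.0738). Kitl, the ligand that germ cells need, was at 11.09, 11.10 and 11.21 and then at 11.53, 11.27 and 11.49 (0.29 ± 0.17, adjusted p = 0.464).

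Genes of mitosis had a median difference of -0.33, against 0.11 for all genes, and few of them passed the test. Of 24 tested, 2 were called, both lower. Cenpe, a kinesin of the centromere, was at 7.35, 7.29 and 7.75 at TS13 and at 6.85, 6.26 and 5.99 at TS24 (-1.10 ± 0.21, adjusted p = 0.00218). Birc5, survivin, was at 8.09, 8.11 and 7.83 and then at 7.54, 7.38 and 6.57 (-0.84 ± 0.21, 0.0205), a call lost without TS13 replicate 1 or 2 or TS24 replicate 3 (up to 0.0872). This call was also lost with the 6 XX arrays alone (0.104). The proliferation marker Mki67 was at 7.20, 7.01 and 7.29 and then at 7.55, 6.20 and 6.08 (-0.56 ± 0.26, adjusted p = 0.294). The median of the 24 genes was 7.18, 7.02 and 7.30 on the TS13 arrays and 7.26, 6.79 and 6.32 on the TS24 arrays, so TS24 replicate 1 lay with the TS13 arrays and replicate 3 lowest.

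Leaving out single arrays moved the mitosis list. The median was -0.53 with 4 genes lower without TS24 replicate 1, and -0.09 with 1 lower without TS24 replicate 3. Without TS13 replicate 1 or 2 there was 1 lower gene as well. Of the 6 arrays compared, TS24 replicate 3 also had the lowest median over all probe sets. With quantile normalization or centring 3 mitosis genes fell, with Top2a added. With the 6 arrays alone 1 fell. Of 25 DNA replication genes 1 fell (median -0.01). This was Orc1, an origin recognition subunit (-0.85 ± 0.23, adjusted p = 0.0368), lost without any single array other than TS24 replicate 2 (up to 0.148). Of 19 G1 cyclins and cyclin-dependent kinase inhibitors 2 rose, Ccnd1 and Ccnd2 (0.79 ± 0.18, 0.00789, lost without TS24 replicate 1, 0.0683). Ccnd2 was also lost with the 6 XX arrays alone (0.071) and with all 36 arrays (0.341). The list had 1 higher gene under both other scalings and 0 with all 36 arrays. Cdkn1b, the inhibitor p27, was at 11.75, 11.62 and 11.54 and then at 12.28, 12.35 and 12.38 (0.70 ± 0.25, adjusted p = 0.122), without overlap but not called.

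**Figure D3:**
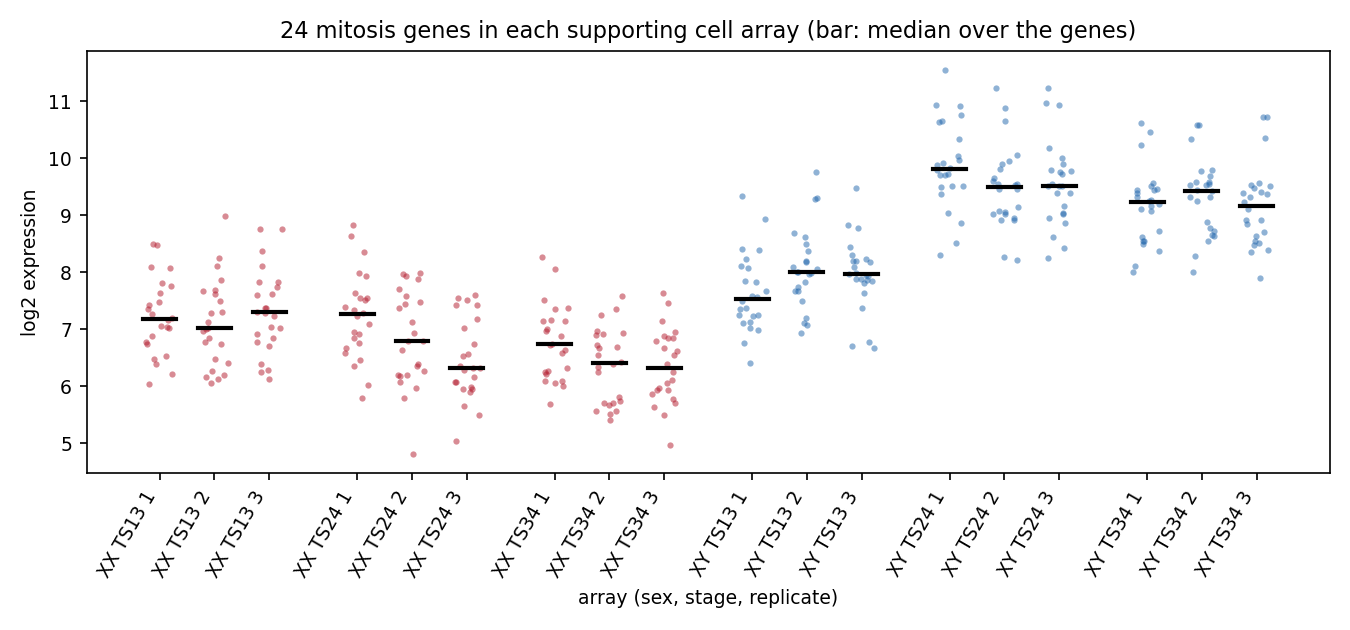
Log2 expression (vertical axis) of the 24 mitosis genes on each of the 18 supporting cell arrays (horizontal axis: sex, stage, replicate), 1 point per gene, with a bar at the median. Medians in XX cells lay between 7.02 and 7.30 at TS13 and between 6.32 and 7.26 at TS24, and in XY cells at TS24 between 9.51 and 9.81.

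Markers of other cells that a sorted sample could hold were read beside these results. In bulk samples fewer cells of a type and less RNA per cell cannot be told apart. No germ cell marker of 12 was called by limma (2 at an unadjusted p under 0.05), and the log2 of their summed level was 9.77 to 10.05 at TS13 and 9.90 to 10.48 at TS24. Single germ markers were higher on TS24 replicate 1, with Dazl at 6.70 against 4.62 to 4.97 on the other 5 arrays and Ddx4 at 6.56 against 4.82 to 5.25. The germ factor Pou5f1 lay between 5.06 and 5.63 on all 6 arrays. Hbb-y, an embryonic globin, ran from 5.49 to 10.85 at TS24 against 7.41 to 7.81 at TS13. No erythroid marker of 7 was called (0 at an unadjusted p under 0.05), nor any of 11 endothelial (1), 9 macrophage (1) or 7 mesonephric markers (2). The macrophage receptor gene Csf1r was lower under both other scalings (-0.48 and -0.52).

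Of 11 interstitial and stromal markers 2 fell, Nr2f2 and the receptor Pdgfra (7.73, 8.15 and 7.67 to 6.89, 7.03 and 6.54, -1.03 ± 0.20, adjusted p = 0.00295, lost with all 36 arrays at 0.498). The summed level of the list was 11.71 to 11.82 at TS13 and 11.20 to 11.68 at TS24. The part of interstitial cells in the falls given above was not tested. Of 12 coelomic epithelium markers 3 rose, Aldh1a2 and the keratin genes Krt8 (1.13 ± 0.18, adjusted p = 0.000387) and Krt18 (0.87 ± 0.20, 0.0117). Krt18 was lost after quantile normalization (0.0751) and without TS13 replicate 2 or TS24 replicate 1 or 2 (up to 0.0769). The summed level lay between 11.14 and 11.26 at TS13 and between 11.83 and 12.44 at TS24, while Upk3b, a defining surface marker of that layer, did not pass the test (0.15 ± 0.15). The part of such cells in the rises of Aldh1a2 and the keratins was not tested.

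Immediate early genes, which cell handling can induce, had 3 of 13 called, all higher (median 0.35). Egr2 went from 7.89, 7.82 and 8.05 to 11.29, 9.40 and 9.58 (2.17 ± 0.36, adjusted p = 0.00056), with TS24 replicate 1 far above the rest. Egr1 rose by 1.05 ± 0.23 (0.00746), lost without TS13 replicate 2 or TS24 replicate 1 (up to 0.0660), and Ier2 by 0.76 ± 0.19 (0.0193), lost without any single array other than TS24 replicate 3 (up to 0.0996). Egr1 was also lost with the 6 XX arrays alone (0.0569), and both genes with all 36 arrays (0.289 and 0.244). The list's summed level was 12.29 to 12.89 at TS13 and 12.81 to 13.29 at TS24, so the stages overlapped. Its part in the other results was not tested.

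**Figure D4:**
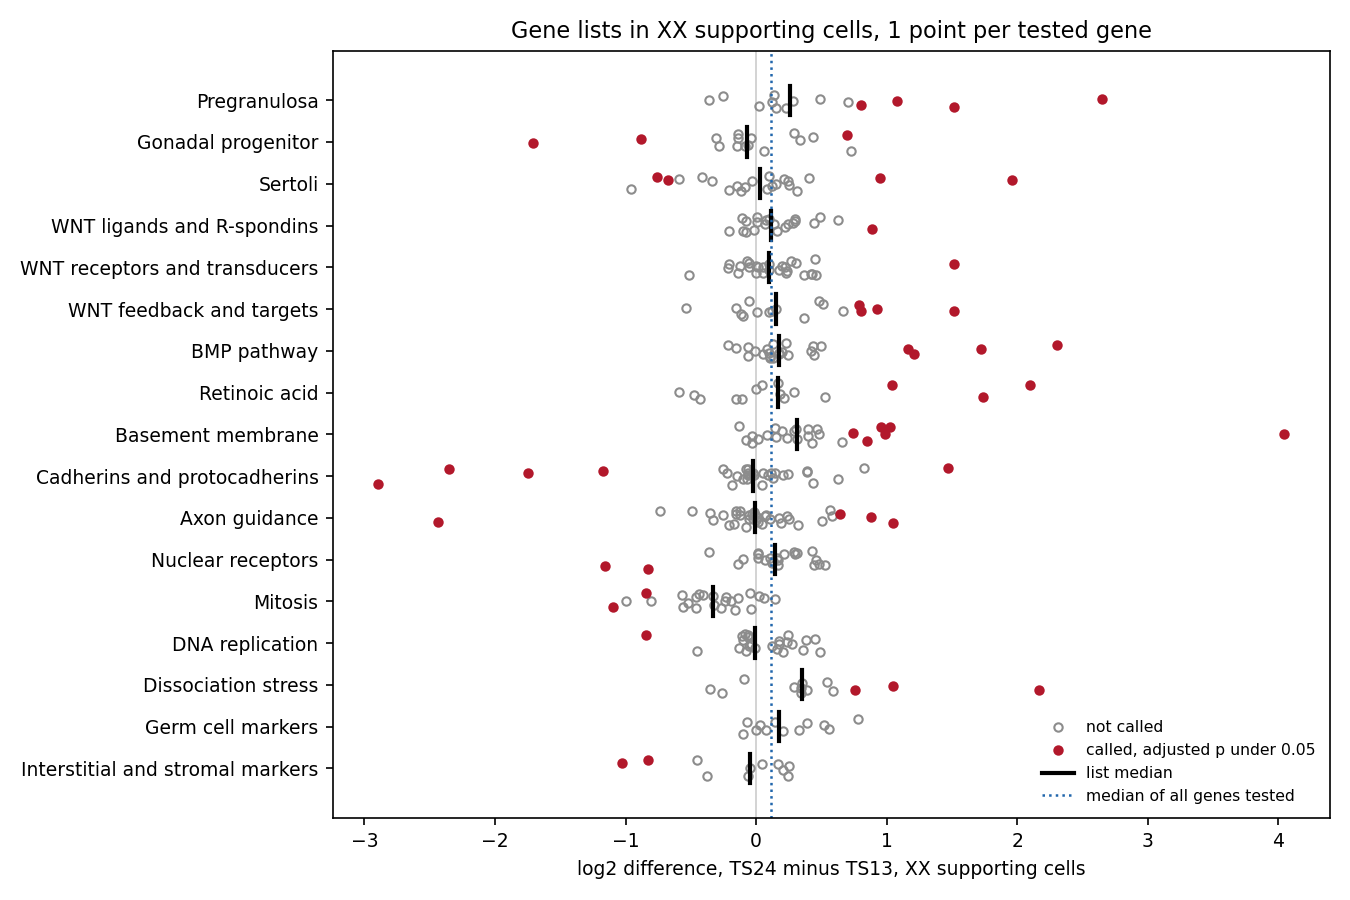
Log2 difference, TS24 minus TS13, in XX supporting cells (horizontal axis) for the tested genes of 17 lists (vertical axis), with filled points for called genes, a black bar at each list's median and a dotted line at the median of all tested genes, 0.11. The medians of mitosis (-0.33) and basement membrane (0.31) lie on opposite sides of that line, and most genes of every list were not called.

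The same step in XY supporting cells shares no array with the XX step and ends in another mouse line. There 3804 of the tested genes changed (24%), 3417 higher (21.6%) and 387 lower (2.45%). Of the 566 genes higher in XX, 200 were also higher in XY, which is 35.3% of the XX genes and 5.85% of the XY genes. Of the 141 lower in XX, 66 were also lower in XY, which is 46.8% of the XX genes and 17.1% of the XY genes, against the 2.45% of all tested genes lower in XY. After quantile normalization the shared higher genes were 15.4% of the XX genes (background 7.09%) and the shared lower genes 46.3% (background 7.65%). After centring these shares were 23.3% (10.2%) and 48.6% (5.83%). In both directions the share lay above the background under all 3 scalings. The XX and XY calls rest on the same pooled spread for each gene, so they are not independent. A gene with a small pooled spread is more easily called in either step, which can lift the share above the background. How much of the shares comes from this was not tested.

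Of the 15 genes with the largest rises in XX, 3 also rose in XY (Pde8b, Fbn2 and Cmbl) and 1 fell (Calcrl, -0.75 ± 0.22, adjusted p = 0.0138), and their median XY difference was 0.15. After quantile normalization or centring 1 rose and 2 fell. Egfl6 moved by 0.06 ± 0.17 in XY (5.95, 5.42 and 5.77 to 6.00, 5.72 and 5.60), Akr1c14 by 0.15 ± 0.16 and Bmp5 by -0.49 ± 0.22, none of them called. Of the 15 largest falls, 11 also fell in XY, 1 rose, and the median XY difference was -1.47, with 12 falls and 1 rise after either scaling. Tgm3 fell by 2.87 ± 0.20 on the log2 scale in XY, Pcdh11x by 2.17 ± 0.26 and Pcdh20 by 1.47 ± 0.25. Robo1 was the gene that rose, from 10.29 to 10.69 at TS13 to between 11.65 and 12.31 at TS24 (1.47 ± 0.19, adjusted p = 6.12e-06).

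The difference between the steps, XY minus XX, was tested itself. It was called for 1014 genes (6.41%), 715 higher (4.52%) and 299 lower (1.89%) in XY. Quantile normalization gave 494 higher and 473 lower genes, and centring gave 573 and 406. Since the named genes were chosen by their XX step, which enters this difference, their calls here are not independent of the choice. Egfl6 differed by -3.98 ± 0.24 (adjusted p = 5.18e-10), Calcrl by -3.16 ± 0.31, Bmp5 by -2.79 ± 0.31 and Robo1 by 3.91 ± 0.27 (1.58e-09). Cmbl (-0.96 ± 0.29, 0.0506) was the 1 gene of the 15 rises for which the steps did not differ past the threshold, and Lgr5 (-0.87, 0.0752) did not either. Of the ID genes Id2 (-1.71 ± 0.36) and Id3 (-1.46 ± 0.25) differed, and Id1 (-1.02 ± 0.33, 0.0692) did not pass.

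**Figure D5:**
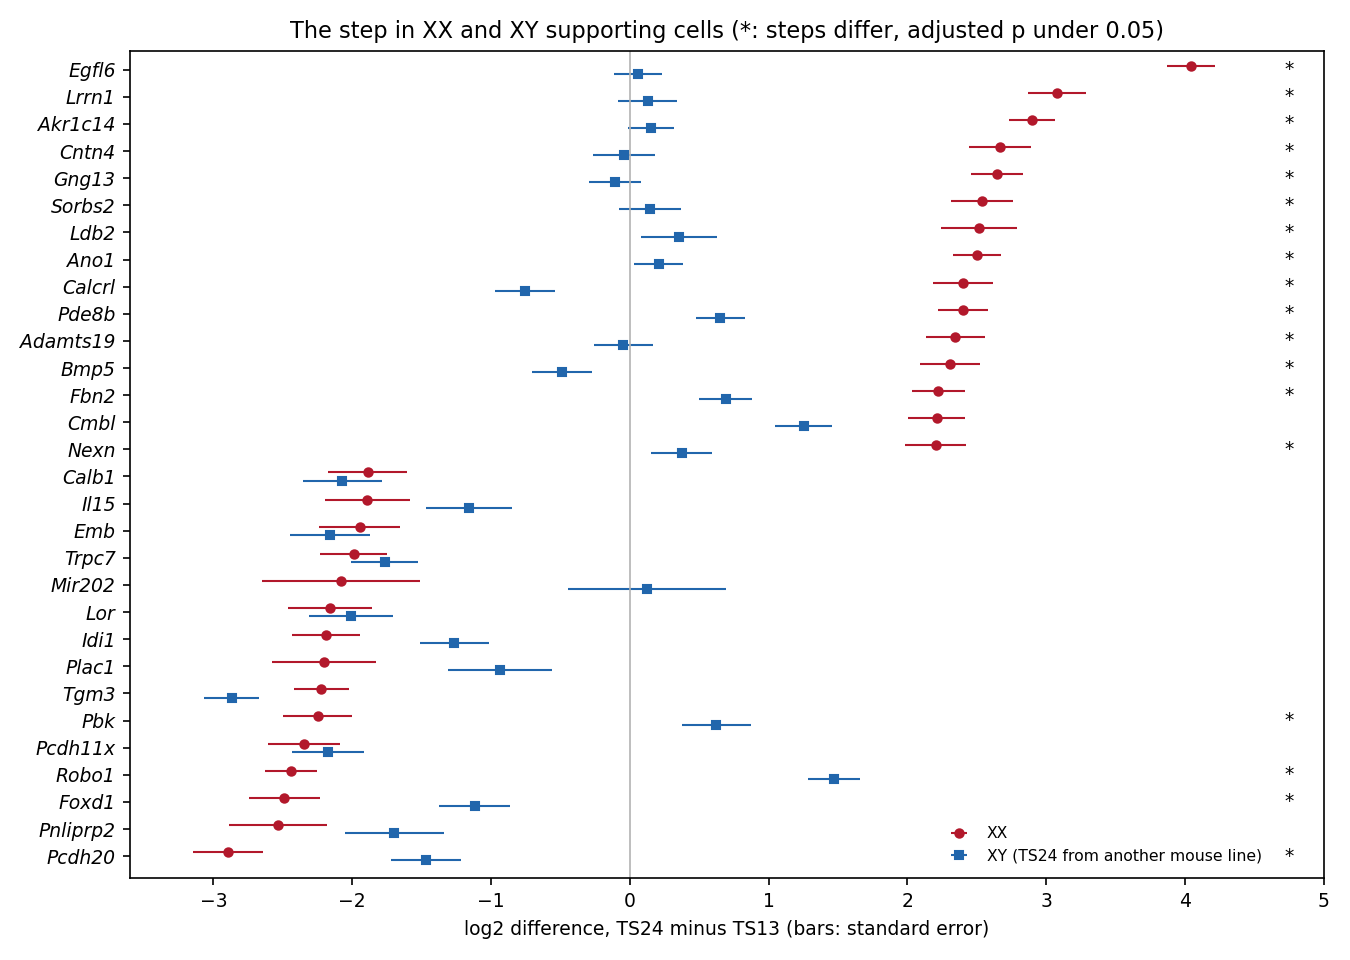
Log2 difference, TS24 minus TS13 (horizontal axis), of the 30 genes with the largest XX changes in XX (circles) and XY (squares) supporting cells. Bars are limma's moderated standard error, and a star marks genes whose steps differed. Most XY squares of the rises lie near 0, while the XY squares of most falls lie left of 0. Robo1 is at -2.44 in XX and 1.47 in XY.

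Of 24 mitosis genes 23 differed between the steps, all higher in XY, with a median difference of 2.19. This list, like the others, was chosen with earlier results of these data known. Foxm1, a mitotic transcription factor, was the exception (1.28 ± 0.42, adjusted p = 0.0707). All 24 rose in XY cells, with a median of 1.67. The array medians of these genes were 7.54, 8.00 and 7.96 in XY cells at TS13 and 9.81, 9.51 and 9.52 at TS24. Mki67 rose by 1.95 ± 0.26 in XY against the uncalled -0.56 in XX. Of 25 DNA replication genes 3 differed between the steps, all higher in XY. Of 14 pregranulosa genes 6 had a lower step in XY and none a higher one. Among them Rspo1 differed by -1.35 ± 0.27 (adjusted p = 0.00250), although its rise in XX alone was not called. Of 22 Sertoli genes 12 had a higher and 1 a lower step in XY. Over all tested genes 4.52% had a higher and 1.89% a lower step in XY. The pregranulosa and Sertoli lists hold genes known from XX or from XY supporting cells. Their directions here are therefore not independent of how the lists were chosen.

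From TS24 to TS34 far fewer genes were called in XX cells. The count was 109 (0.689%), 27 higher (0.171%) and 82 lower (0.518%), and the median over all genes was -0.14. By limma 1937 genes had an unadjusted p under 0.05, against 2446 from TS13 to TS24, so the contrast is one of calls. The balance of directions turned with the scaling. Quantile normalization gave 60 higher against 42 lower genes and centring 49 against 43. This comparison shares the TS24 arrays with the first step, so values are set side by side and no overlap is read. Without TS34 replicate 2 the count was 36, without TS24 replicate 2 it was 47, and without TS34 replicate 1 or 3 it was 67.

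Egfl6 at 10.29, 10.09 and 10.11, Akr1c14 at 8.36, 8.50 and 7.89 and Lgr5 at 9.88, 9.69 and 9.99 at TS34 were not called against TS24. Bmp5 was at 9.52, 9.72 and 9.63, below its TS24 arrays but not called. Sorbs2 (0.95 ± 0.22, adjusted p = 0.0468), Fbn2 (0.98 ± 0.19, 0.0143), Aldh1a1 (0.85 ± 0.19, 0.0315) and Gatm (1.38 ± 0.24, 0.00455) were higher at TS34 than at TS24. Pnliprp2 was at 6.75, 6.47 and 6.56 at TS34, a further difference of -2.96 ± 0.35 (adjusted p = 6.74e-05). Tgm3 differed by -1.36 ± 0.20 (0.000776), Il15 by -1.49 ± 0.31 (0.0225), Mdk by -0.99 ± 0.18 (0.00628) and Orc1 by -1.70 ± 0.23 (0.000373).

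At TS13 XX and XY supporting cells of the same line already differed for 760 genes (4.8%), 363 higher (2.29%) and 397 lower (2.51%) in XY, and genes named for the XX step were among them. The share higher in XY moved from 47.8% to 57.5% after quantile normalization and to 57.2% after centring. This comparison shares the TS13 arrays with the XX step, so only its values are given. Lower in XY were Egfl6 (-0.68, adjusted p = 0.0207), Bmp5 (-1.54, 5.06e-05), Pcdh20 (-1.60) and Fst (-3.50, 1.25e-12). Higher in XY at that stage were Lgr5 (1.37, 0.000104), Aldh1a1 (2.68, 9.63e-10), Gatm (2.60, 1.02e-07), Lama4 (3.50, 1.40e-11) and Fbn2 (1.52). Aldh1a1 was thus at 9.97, 10.28 and 10.28 in XY cells at TS13, a level that XX cells reached at TS24 on replicate 1 alone (10.04) and exceeded on all arrays at TS34 (10.39 to 10.54).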

How the data were processed

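RNA of sorted supporting cells was hybridised to Affymetrix Mouse Gene 1.0 ST arrays. The deposited values are log2 expression per probe set, summarised with RMA per the submitters' processing notes, with version, software and any between-array step not given in the sources used here. They were used as deposited, and for arrays their number limits the precision. Of 35557 probe sets 21789 had 1 gene symbol in the platform annotation, updated to GRCm38.p6 names by Entrez identifier for 21698. Where several probe sets named 1 of the 19938 genes, the one brightest on average across the 18 supporting arrays stood for it. Genes were tested if at least 3 of these arrays read them above that array's own 25th percentile, which removed 4117 genes.

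One mean per group (6 groups of 3) was fitted over the 18 arrays with limma 3.58.1 in R 4.3.3, without covariates (12 residual and 10.45 prior degrees of freedom), and genes were called at a two-sided adjusted p under 0.05 (Benjamini-Hochberg over all genes tested). The median standard error of the XX difference was 0.181. Germ cell arrays were left out of the fit because 1 of them, labelled XX TS24 replicate 3, lacks germ cell markers. The 4 comparisons were the XX step, its difference from the XY step, XX TS34 minus TS24, and XY minus XX at TS13. The procedure was tested on simulated data with independent normal noise. These held no differences in array scale and no array of wider spread, so the test does not address either.

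Named genes were, among called genes whose stages did not overlap, the 15 largest rises and 15 largest falls by log2 difference without predicted or clone-named genes, the 4 markers, and called members of the lists (up to 6 per list) plus members that a role asks for. The members and lists were chosen with earlier results of these data known. Alternatives were 2 scalings, other sets of arrays, filters and probe set rules, a replicate block, a minimum difference and each array left out. The scaling of the XX and XY overlap was added after the data were seen.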

Additional observations from a re-analysis of the deposited data

Results flagged for a closer look

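For 38 of the 85 genes named or called in lists, the step from TS13 to TS24 differed between XY and XX supporting cells by limma's test of the difference itself (adjusted p under 0.05). Of these 27 had the lower and 11 the higher step in XY. The XY cells at TS24 came from another mouse line, and genes named for their XX step were chosen on arrays that enter the difference. All values are log2, XY step minus XX step.

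Among the genes with the largest rises in XX, the differences were -3.98 for Egfl6, -3.16 for Calcrl, -2.95 for Lrrn1, -2.79 for Bmp5, -2.75 for Gng13, -2.74 for Akr1c14 and -2.71 for Cntn4. They were -2.39 for Adamts19, -2.39 for Sorbs2, -2.29 for Ano1, -2.17 for Ldb2, -1.83 for Nexn, -1.75 for Pde8b and -1.53 for Fbn2. Among the largest falls, Foxd1 (1.37), Pcdh20 (1.42), Pbk (2.87) and Robo1 (3.91) differed.

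Of signalling genes and their targets, the values were -1.99 for Fst, -1.75 for Fgfr2, -1.71 for Id2, -1.46 for Id3, -1.43 for the hedgehog co-receptor Boc and 1.09 for midkine (Mdk). Of guidance and adhesion genes they were -1.67 for Sema3a, -1.43 for Efna1, -1.08 for Cdh2 and 1.17 for Cdh9. Retinoic acid genes gave -1.065 for Stra6 and -1.04 for Aldh1a1. Transcription factor genes gave -1.17 for Irx3, -0.97 for Sox11 and 1.48 for Dmrt1, and the stromal receptor Pdgfra gave -1.01. The Sertoli genes Cbln4 (1.05) and Defb19 (2.91) and the mitosis genes Birc5 (2.18) and Cenpe (2.55) had the higher step in XY.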

How the results depend on the processing

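The XX step called 707 genes with the 18 supporting arrays, 445 with its own 6 arrays alone, 297 with all 36 arrays and 277 at a difference of at least 1. Leaving out 1 array in turn gave 436 to 1173. The difference between the XY and XX steps gave 1014 genes, 458 with all 36 arrays, and 743 to 1271 with 1 array left out. The late XX step gave 109 genes, 19 with all 36 arrays, 49 at a difference of at least 1, and 36 to 151 with 1 array left out. The sex difference at TS13 gave 760 genes, 400 with all 36 arrays, 340 at a difference of at least 1, and 484 to 714 with 1 array left out. The fits with all 36 arrays include the array whose markers go against its label, and without it the XX step had 588 genes. Filters, probe set means and both scalings kept these 4 counts within 1.5 times.

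Replicate numbers gave no sign of pairing. Deviations of same-numbered XX arrays at TS13 and TS24 correlated at -0.02, -0.05 and -0.04, against -0.02 to 0.05 for arrays of unlike number. With 3 arrays per group these correlations cannot show that pairing was absent. With the replicate number as a block the XX step had 709 genes, the difference of the steps 989, the late step 108 and the sex difference 753.

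Of 85 genes named or called in lists, 46 kept their call for the XX step in every setting, 39 lost it in at least 1, and none changed sign. One setting asked for a difference of at least 1, and there 29 genes lost their call because their difference was smaller. Shared higher genes of the XX and XY steps numbered 200 as deposited, 50 after quantile normalization and 87 after centring, and shared lower genes 66, 131 and 107, so the count of shared rises rests on the scale. Values below an array's 25th percentile (5.517 to 5.814) are near background, and differences there are compressed. Each group had 3 arrays, which limits the precision. The cause of the calls lost in the other settings was not tested.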
